A study of Homo sapiens with 9 samples.

Results

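Long noncoding RNA genes whose symbol is LINC followed by a number were examined in U2OS, an established line of human osteosarcoma cells, with NFKB2 or RELB knocked down. The count tables list 44608 named entries, of which 2106 have such a symbol. A gene was taken as expressed when it had a mean of at least 1 CPM (its count scaled to the total count of the library) over 9 libraries, and 165 LINC genes met this rule. The genes were thus chosen by their measured level. The rule used the level over all libraries and not the differences between groups. Levels are therefore given as a description, and differences between groups are tested. Polyadenylated RNA was sequenced from cells transfected for 48 h with a non-silencing siRNA (siNS), an siRNA against NFKB2 (siNFKB2) or an siRNA against RELB (siRELB), each at 75 nM with Lipofectamine RNAiMAX. There were 3 libraries per group, and every group, siNS included, received siRNA and lipid in DMEM with high glucose. All cells were of 1 line, and knockdown was transient.

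LINC symbols are given to long intergenic noncoding RNA genes that have no better known name. Such transcripts are often spliced and polyadenylated like mRNA, are usually less abundant than mRNA, and vary strongly between cell types. Most have no established function, and a few act on neighbouring genes, on chromatin, or by binding proteins or microRNAs in the cytoplasm. NFKB2 encodes a precursor that is cut to the NF-kB subunit p52, and RELB encodes its usual partner in the non-canonical NF-kB pathway.

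Library totals ranged from 15011789 to 19279572 reads. NFKB2 was left at 4.87%, 21.1% and 44.8% of its siNS mean in siNFKB2 replicates 1 to 3. RELB was left at 9.79% to 19.7% of its siNS mean in the siRELB libraries. Mitochondrial rRNA, which varies with RNA quality and selection, took 0.406% to 1.33% of reads in siNS, 0.519% to 2.68% in siNFKB2 and 0.379% to 0.856% in siRELB. Of 10 mesenchymal and bone markers 1 was at 0 in every library. Their summed level was 3450 to 4440 CPM in siNS, 2880 to 3100 CPM in siNFKB2 and 3190 to 3840 CPM in siRELB. VIM (mean 2910 CPM in siNS) and COL1A1 (866 CPM) held most of it. The markers did not move alike in siNFKB2 against siNS (edgeR quasi-likelihood test, adjusted p below 0.05). Of 7 tested, ALPL (log2 2.025) and SPP1 (1.23) were higher. COL1A1 (-0.67), COL1A2 (-0.95), COL5A1 (-2.145) and RUNX2 (-1.36) were lower. The 7 epithelial markers summed to 220 to 314 CPM in siNS, 145 to 154 CPM in siNFKB2 and 266 to 311 CPM in siRELB. None was at 0 in every library, but KRT5, KRT19 and ESRP1 had group means of at most 0.287 CPM. The sum was mostly KRT8, with means of 264, 137 and 269 CPM in siNS, siNFKB2 and siRELB. By the same test KRT8 and CLDN4 were lower in siNFKB2 than in siNS. CDH1 was higher in siNFKB2 (log2 0.82) and in siRELB (1.18). The 6 blood markers, 3 of them at 0 throughout, summed to at most 7.42 CPM. The part of the marker differences in the results below was not tested.

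The expressed LINC genes were a low-abundance class. Their mean level ran from 1.03 to 125.3 CPM with a median of 4.31 CPM, and 122 of 165 lay between 1 and 10 CPM, 41 between 10 and 100 CPM and 2 above 100 CPM. LINC00452 (125.3 CPM), located beside GAS6 on chromosome 13, and LINC00958 (115.5 CPM), a transcript also studied as BLACAT2 in bladder cancer, had the highest means. They were followed by LINC00674 (74.1 CPM), LINC01029 (65.7 CPM), LINC00520 (59.4 CPM), LINC02693 (51.4 CPM), LINC02085 (50.1 CPM), LINC00667 (44.7 CPM), LINC00963 (43.6 CPM) and LINC00839 (42.2 CPM). These 10 genes held 39.6% of all reads of the class. Longer transcripts can collect more reads, and per kilobase of exonic length the order changed. LINC00674 was highest at 101 CPM per kb, followed by LINC00958 at 40.3, LINC01173 at 39.4, LINC00452 at 35.0, LINC02331 at 34.2 and LINC01029 at 31.4 CPM per kb. Differences in level between genes were not tested.

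Just inside the limit of 1 CPM lay LINC01003 (1.03 CPM), LINC00634 (1.03 CPM) and LINC00858 (1.03 CPM). Just outside it lay LINC00518 (0.993 CPM), LINC02328 (0.978 CPM) and LINC02273 (0.97 CPM). Another 1065 LINC genes had no read in any library, and 876 had reads but a mean below 1 CPM. All 165 expressed genes passed the filter on low counts, as did 83 LINC genes under 1 CPM that are not described here. Of the 165, 137 were at 1 CPM or more in all 3 groups. The group mean was below 1 CPM for 12 genes in siNS, 12 in siNFKB2 and 10 in siRELB. Between libraries of a group the median coefficient of variation of the 165 genes was 17.98% in siNS, 19.8% in siNFKB2 and 14.4% in siRELB.

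The class as a whole took more reads after NFKB2 knockdown. Summed over the 165 genes, the level was 1563, 1528 and 1494 CPM in siNS replicates 1 to 3, 1952, 1737 and 1897 CPM in siNFKB2, and 1718, 1689 and 1679 CPM in siRELB. The 3 groups did not overlap, with siNS lowest and siNFKB2 highest. The means were 1528 ± 34.5, 1862 ± 112 and 1695 ± 20.3 CPM (SD, n = 3), and no test was made on this sum over chosen genes. A few abundant genes carried much of the difference. From siNS to siNFKB2 the mean of LINC02085 differed by 48.8 CPM, that of LINC00520 by 45.7, of LINC00958 by 42.2, of LINC00452 by 35.9 and of LINC00839 by 19.1 CPM. Without these 5 genes the sums were 1212 to 1247 CPM in siNS, 1295 to 1430 CPM in siNFKB2 and 1285 to 1311 CPM in siRELB. The siNS libraries were still below both knockdowns, and the knockdowns overlapped. The 5 genes were picked for the largest rises from siNS to siNFKB2 in these data. Leaving them out therefore lowers siNFKB2 most, and the overlap follows in part from that choice. From siNS to siRELB the mean of LINC00452 differed by 51.2 CPM, that of LINC00958 by 23.7 CPM and that of LINC00520 by 21.9 CPM. In bulk RNA a change in the number of cells that express a gene and a change in its RNA per cell cannot be told apart.

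**Figure D1:**
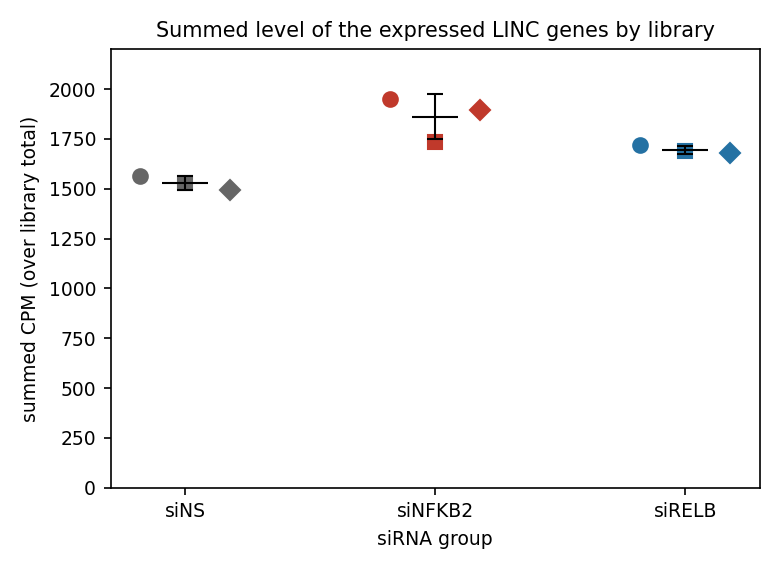
Summed level of the 165 expressed LINC genes in CPM over the library total (y axis) in each of the 9 libraries by siRNA group (x axis), with circles, squares and diamonds for replicates 1, 2 and 3 and bars for mean ± SD. The siNS libraries lie at 1494 to 1563 CPM, the siRELB libraries at 1679 to 1718 CPM and the siNFKB2 libraries at 1737 to 1952 CPM.

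Many of these RNAs differed between siNFKB2 and siNS. Of the 165 genes, 36 rose and 15 fell (edgeR quasi-likelihood test, adjusted p below 0.05 over all 14815 genes tested). The 36 that rose were 21.8% of the class, beside 12.6% of all tested genes that were called higher. The 15 that fell were 9.09%, beside 13.5% of all tested genes. Together the 51 called genes were 30.9% of the class, near the 26.1% called among all genes. Rises thus outnumbered falls here while they were about balanced over all genes. The median log2 fold change was 0.14 for the class and -0.0037 over all genes, and 102 of 165 genes had a positive value. A lean to positive values was also seen in siRELB against siNS, with 98 of 165 genes. The median there was 0.076 for the class and -0.016 over all genes, and both comparisons share the siNS libraries. Among the 137 genes at 1 CPM or more in every group, 32 rose and 9 fell in siNFKB2. That limit removes genes that are low in any group, including falls in siNFKB2, so these counts are partly fixed by it. The share of all genes under the same limit is not given. Rises and falls were more uneven among the more abundant genes. Of 78 genes at a mean of 5 CPM or more, 23 rose and 4 fell, while 14.2% of all genes at that level were called higher and 15.6% lower. Of 87 genes at 1 to 5 CPM, 13 rose and 11 fell, beside 10.1% and 9.85% of all genes at that level. The libraries of siNFKB2 and siNS did not overlap for 66 of 165 genes (40%), beside 37.4% of all tested genes.

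**Figure D2:**
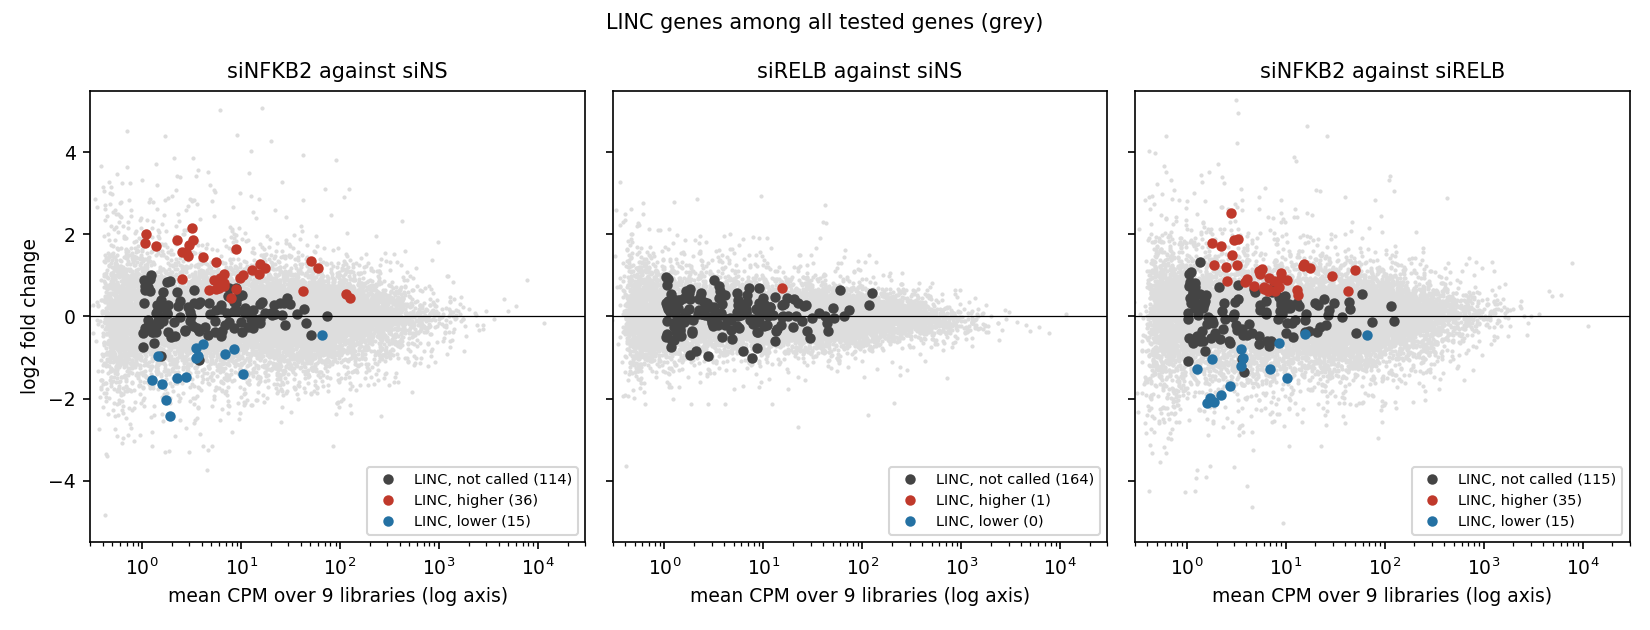
Fitted log2 fold change (y axis) against mean CPM over 9 libraries (x axis, log scale) for all tested genes (grey) and the 165 LINC genes (dark, red where called higher, blue where called lower) in the 3 comparisons. In siNFKB2 against siNS 36 LINC genes are red and 15 blue, in siRELB against siNS 1 is red and none blue, and in siNFKB2 against siRELB 35 are red and 15 blue.

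LINC02057, a spliced lincRNA gene (chromosome 5, 61201309 to 61264929, minus strand; gene positions are from GENCODE 29 on GRCh38), had the smallest adjusted p and the largest rise. Its level was 1.10, 1.06 and 1.76 CPM in siNS replicates 1 to 3, 5.31, 6.67 and 5.49 CPM in siNFKB2 and 2.20, 2.71 and 2.41 CPM in siRELB. The groups did not overlap, and siRELB lay between siNS and siNFKB2. In siNFKB2 against siNS the fitted log2 value was 2.15 (SE 0.245, adjusted p = 0.000398). LINC02434, on chromosome 4 (188160065 to 188161139, plus strand), also rose. It stood at 10.6, 12.1 and 11.9 CPM in siNS, 23.6, 23.3 and 24.2 CPM in siNFKB2, and 10.3, 9.43 and 10.4 CPM in siRELB. All 3 siNFKB2 libraries were about double the others, and the fitted value was log2 1.04 (SE 0.125, adjusted p = 0.000452).

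LINC02085, on chromosome 3 (101940859 to 101997926, plus strand), is listed by RefSeq as RDUR, named for regulation of the antiviral response that depends on RIG-I, a sensor of viral RNA. It stood at 31.5, 30.3 and 34.3 CPM in siNS, 62.1, 95.2 and 87.8 CPM in siNFKB2, and 30.3, 42.0 and 39.4 CPM in siRELB. The siNFKB2 libraries lay above all others, and the fitted value was log2 1.35 (SE 0.181, adjusted p = 0.000749). On the same strand the transcript AC106712.1 covers 91.9% of its exonic bases, so the count may belong to either model. LINC01204, on the X chromosome (45505388 to 45630202, plus strand), moved apart in the knockdowns. It stood at 2.00, 1.88 and 1.70 CPM in siNS, 4.56, 5.98 and 6.09 CPM in siNFKB2, and 1.23, 0.759 and 0.875 CPM in siRELB. Here siNFKB2 was the highest group and siRELB the lowest, without overlap. In siNFKB2 the fitted value was log2 1.57 (SE 0.234, adjusted p = 0.00129), and in siRELB it was -0.95 (adjusted p = 0.1, not called).

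Further rises were seen in the next genes by adjusted p. LINC02327 on chromosome 14 (28830244 to 28968400, plus strand) stood at 4.94, 5.44 and 4.34 CPM in siNS, 9.61, 10.0 and 10.5 CPM in siNFKB2 and 5.99, 5.04 and 4.71 CPM in siRELB (log2 1.03, adjusted p = 0.00178). LINC02476 on chromosome 7 (119704556 to 119907375, minus strand) stood at 9.52, 8.07 and 7.96 CPM in siNS, 23.1, 15.9 and 16.9 CPM in siNFKB2 and 13.6, 11.3 and 10.8 CPM in siRELB (log2 1.13, adjusted p = 0.00179). In both genes siNFKB2 was above all other libraries, and for LINC02476 siRELB lay between. LINC00944 on chromosome 12 (126729787 to 126772411, minus strand) stood at 1.26, 2.00 and 1.87 CPM in siNS, 4.78, 5.45 and 6.88 CPM in siNFKB2 and 1.08, 1.90 and 1.75 CPM in siRELB (log2 1.74, adjusted p = 0.00182). LINC01138 on chromosome 1 (148290889 to 148519604, minus strand) stood at 4.15, 3.44 and 2.96 CPM in siNS, 7.03, 10.3 and 9.20 CPM in siNFKB2 and 3.54, 4.77 and 4.54 CPM in siRELB (log2 1.32, adjusted p = 0.00199). It has 11.5% of its exonic bases opposite AC245100.6, and without a stated strand setting those reads cannot be assigned. LINC02535 on chromosome 6 (85387219 to 85390186, minus strand) stood at 7.05, 2.81 and 4.17 CPM in siNS, 14.9, 14.7 and 14.2 CPM in siNFKB2 and 8.91, 6.89 and 6.95 CPM in siRELB (log2 1.63, adjusted p = 0.00237). The siNS libraries of LINC02535 spread more than those of siNFKB2, and replicate 1 overlapped the siRELB libraries.

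Of the 12 genes with the smallest adjusted p, 3 fell. LINC00511, a transcript reported to promote growth in several tumour types, lies on chromosome 17 (72290091 to 72640472, minus strand). It stood at 2.00, 2.44 and 2.63 CPM in siNS, 0.805, 0.348 and 0.529 CPM in siNFKB2, and 2.46, 2.28 and 2.02 CPM in siRELB. The siNFKB2 libraries were below all others and siRELB overlapped siNS, and the fitted value in siNFKB2 was log2 -2.05 (SE 0.315, adjusted p = 0.00149). LINC01638 on chromosome 22 (27221349 to 27224727, minus strand) stood at 10.7, 16.3 and 11.4 CPM in siNS, 5.58, 3.83 and 5.03 CPM in siNFKB2, and 11.7, 16.1 and 13.1 CPM in siRELB (log2 -1.40, adjusted p = 0.00171). LINC01963 on chromosome 2 (216217045 to 216220192, plus strand) stood at 3.58, 2.94 and 3.24 CPM in siNS, 1.45, 0.928 and 1.13 CPM in siNFKB2, and 4.61, 3.47 and 3.39 CPM in siRELB (log2 -1.47, adjusted p = 0.00237). For both genes siNFKB2 was lowest in every library.

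**Figure D3:**
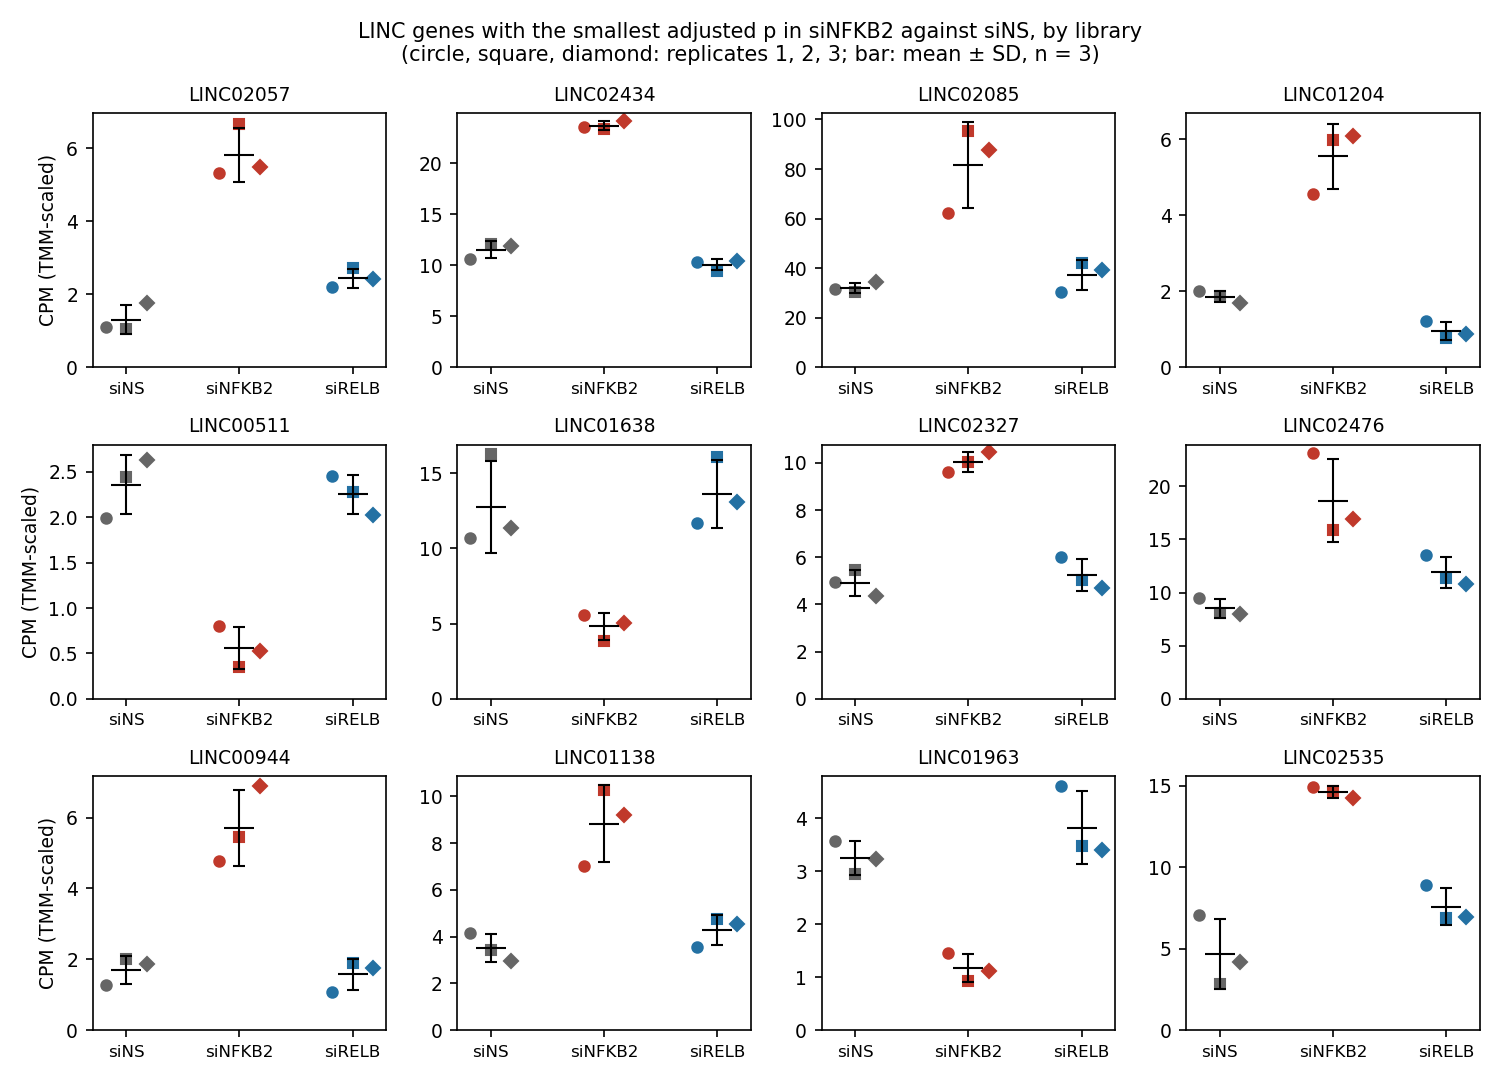
Level in CPM on TMM-scaled library sizes (y axes, each from 0) of the 12 LINC genes with the smallest adjusted p in siNFKB2 against siNS, by siRNA group (x axes), with circles, squares and diamonds for replicates 1, 2 and 3 and bars for mean ± SD. In 9 genes siNFKB2 lies above siNS and in 3 (LINC00511, LINC01638 and LINC01963) below it, with no overlap of these groups.

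The other 27 genes that rose covered log2 fold changes from 0.45 to 2.00. LINC00911 (log2 2.00), LINC00565 (1.87), LINC01322 (1.85) and LINC02806 (1.79) had the largest values after LINC02057. LINC00911, LINC02806 and LINC01293 reached the mean of 1 CPM only through siNFKB2, the group where they were high, with group means of 0.469, 0.507 and 0.721 CPM in siNS and 1.89, 1.76 and 2.38 CPM in siNFKB2, so their rises are partly fixed by the choice of genes. LINC01293 (1.72), LINC02827 (1.56), LINC02310 (1.48), LINC01094 (1.44), LINC02009 (1.27), LINC02381 (1.19), LINC00520 (1.17) and LINC01444 (1.01) also rose by at least a doubling. The remaining rises were below a doubling and were in LINC01579 (0.94), LINC01139 (0.93), LINC02657 (0.90), LINC02454 (0.88), LINC02104 (0.86), LINC01806 (0.81), LINC00665 (0.75), LINC01583 (0.70), LINC00960 (0.67), LINC00920 (0.67), LINC00702 (0.64), LINC00839 (0.63), LINC00958 (0.54), LINC00452 (0.46) and LINC00648 (0.45). LINC00665, whose transcript is reported to encode a small peptide, stood at 5.42, 5.44 and 5.16 CPM in siNS and 8.75, 8.99 and 9.27 CPM in siNFKB2, an example of a modest rise with little spread. In all, 21 of the 36 rises were at least a doubling. The libraries of both groups did not overlap in 34 of the 36, the exceptions being LINC02806 and LINC00839. Calling favours genes without overlap, so this count is a description and no separate support.

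The other 12 genes that fell covered log2 fold changes from -2.43 to -0.45. LINC02474 had the lowest value, -2.43, with 24, 1 and 3 reads in siNFKB2 against 74, 44 and 38 in siNS, so its fitted fold change rests on very few reads. It was -4.48 without siNFKB2 replicate 1, and the call was lost without siNFKB2 replicate 2 (log2 -1.90, adjusted p = 0.0678) or replicate 3 (-2.07, 0.0748, range over all alternatives 8.73e-05 to 0.0748). LINC01852 (-1.66), LINC01503 (-1.54), LINC01910 (-1.50) and LINC02582 (-1.01) fell by more than a halving. LINC01503, reported as driven by enhancers in squamous cancers, stood at 1.16, 2.13 and 1.92 CPM in siNS and 0.537, 0.638 and 0.596 CPM in siNFKB2. LINC00513 (-0.97), LINC01311 (-0.96), LINC00997 (-0.92), LINC02616 (-0.79), LINC01260 (-0.76), LINC02840 (-0.68) and LINC01029 (-0.45) fell by less than a halving. The groups did not overlap in any of the 15 genes that fell, which calling likewise favours. LINC01260 lies wholly within AL139352.1 on the same strand, so its count may belong to either model. LINC00997 (11%) and LINC00960 (10%) share exonic bases with DPY19L1P1 and ZNF717 on the opposite strand.

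**Figure D4:**
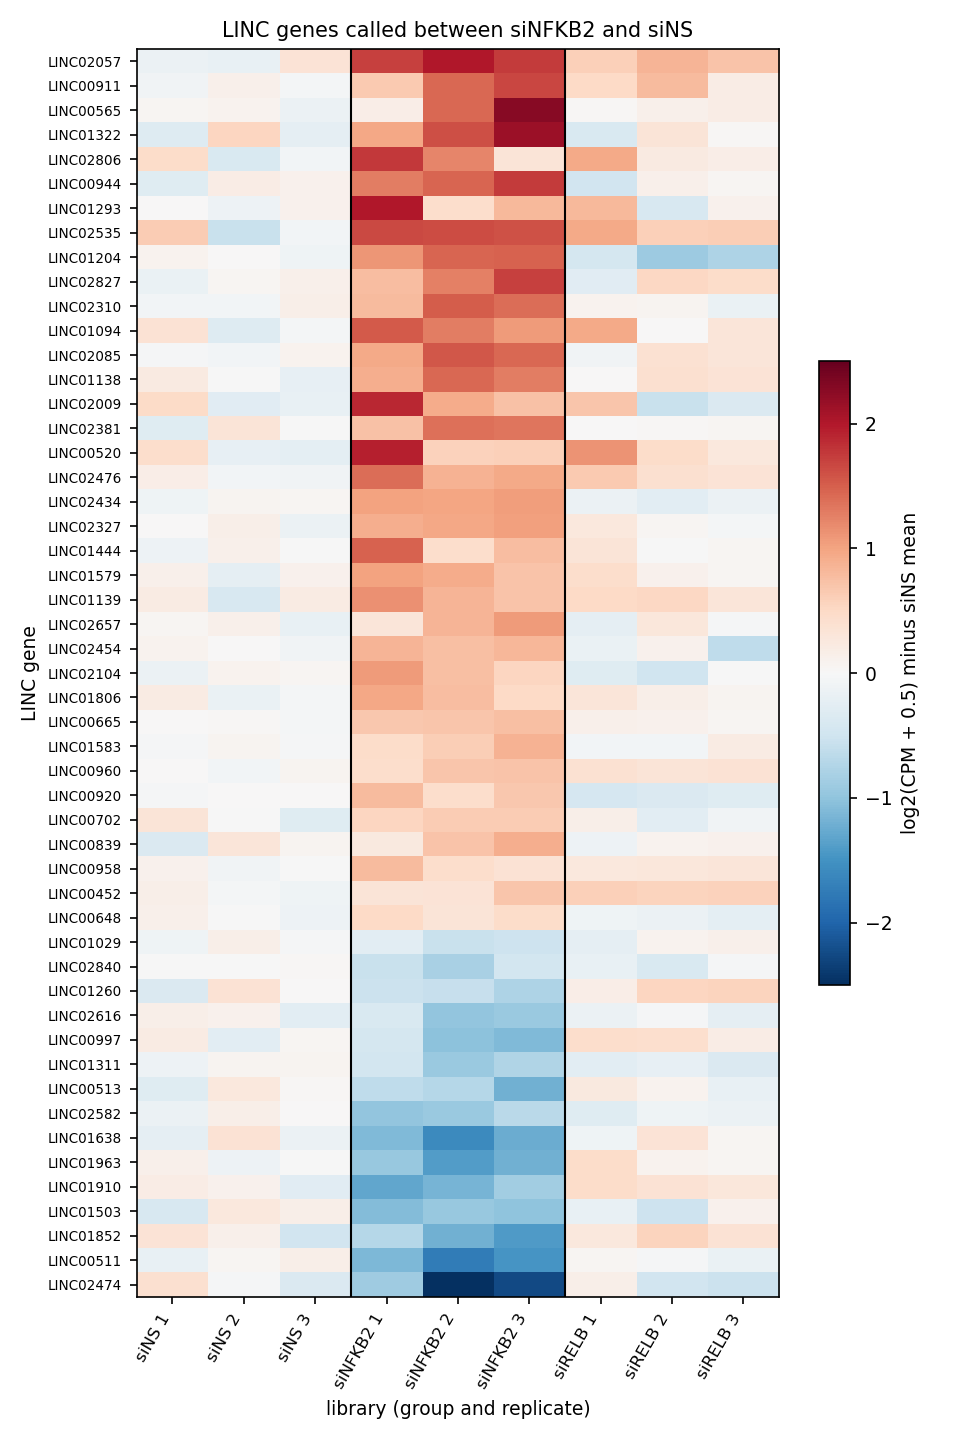
log2(CPM + 0.5) minus the siNS mean (colour scale) for the 51 LINC genes called between siNFKB2 and siNS (y axis, ordered by fitted log2 fold change) in the 9 libraries (x axis). The siNFKB2 libraries differ in strength from gene to gene, as in LINC00520, which is highest in replicate 1, and LINC00565, which is highest in replicate 3.

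Not every called gene moved alike in the 3 siNFKB2 libraries. LINC00520 stood at 141.0 CPM in siNFKB2 replicate 1 but at 54.7 and 55.3 CPM in replicates 2 and 3, beside 49.5, 31.3 and 30.7 CPM in siNS. Without siNFKB2 replicate 1 its log2 fold change was 0.56 and its call was lost (adjusted p = 0.164, range over all alternatives 0.000103 to 0.164). LINC02009 stood at 38.9, 20.0 and 17.3 CPM in siNFKB2 and 14.5, 8.32 and 8.89 CPM in siNS, and without siNFKB2 replicate 1 its log2 fold change was 0.82 (adjusted p = 0.137, range 6.53e-05 to 0.137). For both genes the siNS library numbered 1 was also the highest of its group. LINC01293 (4.40, 1.16 and 1.65 CPM in siNFKB2, at most 0.823 CPM in siNS) lost its call without siNFKB2 replicate 1 (log2 0.93, adjusted p = 0.206, range 0.00392 to 0.206). LINC00565 behaved in the opposite way, with 1.34, 3.95 and 7.48 CPM in siNFKB2 and 0.988 to 1.25 CPM in siNS. Without siNFKB2 replicate 3 its log2 fold change was 1.20 (adjusted p = 0.0782, range 0.000331 to 0.0797). None of these 4 calls rested on a single library. With each of the 9 libraries left out in turn, LINC00520 and LINC02009 lost theirs in 5 fits, LINC01293 in 6 and LINC00565 in 4. Without siNS replicate 3 the adjusted p was 0.1355 for LINC02009 and 0.0797 for LINC00565. The siNFKB2 libraries also differed in knockdown, with NFKB2 left at 4.87%, 21.1% and 44.8% of its siNS mean in replicates 1 to 3. Mitochondrial rRNA took 0.519%, 1.01% and 2.68% of their reads. Whether either difference is tied to these levels was not tested.

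Leaving out each of the 9 libraries in turn kept 30 of the 51 calls throughout, and the 12 genes with the smallest adjusted p were among them. The number of calls was 33 without siNS replicate 3, 35 without siNFKB2 replicate 2, 36 without siNFKB2 replicate 3 and 37 without siNS replicate 2. No called fold change turned its sign. Of the abundant genes, LINC00958 kept its call, at 101.1, 88.4 and 93.7 CPM in siNS and 163.3, 127.8 and 121.6 CPM in siNFKB2 (log2 0.54, SE 0.127, adjusted p = 0.0112). The calls of LINC00452 (adjusted p = 0.112 without siNS replicate 3, range 0.00141 to 0.112), LINC01029 (0.14 without siNFKB2 replicate 2, range 0.000525 to 0.14) and LINC00839 (0.143 without siNFKB2 replicate 3, range 0.000949 to 0.143) were lost with single libraries left out. They were lost in 3, 6 and 7 of the 9 fits. LINC00648, LINC00702 and LINC01260 lost their calls in 8 of the 9 fits, with the highest adjusted p at 0.152 and 0.177 without siNS replicate 3 and at 0.157 without siNS replicate 2. LINC02806 (0.145 without siNFKB2 replicate 1) and LINC02657 (0.133 without siNS replicate 3) lost theirs in 6 of 9. LINC01311 (0.0958 without siNFKB2 replicate 2) and LINC00513 (0.0639 without siNFKB2 replicate 3) lost theirs in 4, and LINC02840 (0.11), LINC02616 (0.0858) and LINC00997 (0.0731), each highest without siNFKB2 replicate 2, in 3. LINC01583 (0.0572 without siNS replicate 3) lost its call in 2 fits, and LINC01852 (0.06 without siNFKB2 replicate 2) and LINC02454 (0.0502 without siNS replicate 3) in 1. With mitochondrial rRNA as a covariate 63 genes were called in this comparison, including all 51.

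Promoter sequences were available in the RefSeq table (GRCh38.p14, 250 bases before to 50 after the annotated start) for 108 of the 165 genes. They were searched on both strands for TGANTCA, the core site of the AP-1 factors FOS and JUN, and for the NF-kB consensus, the site family that p52 and RELB dimers bind. TGANTCA was in 18 of 108 promoters (16.7%), beside 7.71% of 35116 promoters of all genes. It was in 6 of 24 promoters of genes that rose (25%), 1 of 6 of genes that fell (16.7%) and 11 of 78 of genes not called (14.1%). The NF-kB consensus was in 8 of 108 (7.41%), beside 11.3% of all promoters, and in 1 of the 24 of genes that rose. The median GC content was 48.7% for genes that rose, 52.5% for genes that fell, 60.2% for genes not called and 58.7% for all promoters. A match is a description of the letters and not of binding. The promoters of LINC02009 (chr3:46423618-46423917, minus strand), LINC02535 (chr6:85404753-85405052, minus strand), LINC01094 (chr4:78645744-78646043, plus strand), LINC02827 (chr12:3300113-3300412, plus strand) and LINC02657 (chr10:5596069-5596368, minus strand) are shown because they belong to genes that rose and hold TGANTCA. The sixth, of LINC00702, is named only. Capitals mark TGANTCA and, in LINC02827 alone, also the NF-kB consensus match GGGAAGTTCC. The RefSeq start of LINC02535 lies upstream of its start in GENCODE 29.
LINC02009: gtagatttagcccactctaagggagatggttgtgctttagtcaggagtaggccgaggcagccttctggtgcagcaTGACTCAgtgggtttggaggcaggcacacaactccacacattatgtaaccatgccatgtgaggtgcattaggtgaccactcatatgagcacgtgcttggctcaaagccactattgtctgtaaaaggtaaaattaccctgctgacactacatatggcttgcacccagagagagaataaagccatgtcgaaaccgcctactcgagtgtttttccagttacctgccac
LINC02535: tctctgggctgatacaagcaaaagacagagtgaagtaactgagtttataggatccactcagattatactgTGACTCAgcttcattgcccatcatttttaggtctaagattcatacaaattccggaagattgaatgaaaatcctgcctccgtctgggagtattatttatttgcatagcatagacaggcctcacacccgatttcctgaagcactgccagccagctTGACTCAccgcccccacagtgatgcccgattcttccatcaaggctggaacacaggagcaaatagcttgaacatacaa
LINC01094: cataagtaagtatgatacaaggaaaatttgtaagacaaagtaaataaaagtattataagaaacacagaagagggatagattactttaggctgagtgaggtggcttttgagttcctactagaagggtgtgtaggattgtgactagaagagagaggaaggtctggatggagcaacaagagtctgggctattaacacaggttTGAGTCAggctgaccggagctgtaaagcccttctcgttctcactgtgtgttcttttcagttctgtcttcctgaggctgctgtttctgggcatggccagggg
LINC02827: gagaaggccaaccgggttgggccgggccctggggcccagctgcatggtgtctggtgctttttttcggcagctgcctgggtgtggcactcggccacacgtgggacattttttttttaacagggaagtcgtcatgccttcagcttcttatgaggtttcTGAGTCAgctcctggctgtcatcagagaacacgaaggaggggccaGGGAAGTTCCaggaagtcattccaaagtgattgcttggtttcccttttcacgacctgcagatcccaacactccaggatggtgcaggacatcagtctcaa
LINC02657: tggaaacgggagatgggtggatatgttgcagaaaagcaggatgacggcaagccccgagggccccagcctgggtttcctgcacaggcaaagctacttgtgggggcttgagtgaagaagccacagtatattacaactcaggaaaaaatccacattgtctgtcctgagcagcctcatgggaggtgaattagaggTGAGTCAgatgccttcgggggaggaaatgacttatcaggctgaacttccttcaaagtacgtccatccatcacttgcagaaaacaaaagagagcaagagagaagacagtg
In LINC02535 the site occurs in 2 places, and in the other 4 promoters once.

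The promoters of the leading genes LINC02057, LINC02434, LINC02085, LINC01138, LINC00511 and LINC01638 were in the table and held neither motif in these 300 bases. LINC02057 has a GC content of 32.3% there and LINC00511 one of 78.0%. The promoter of LINC02057 (chr5:61264880-61265179, minus strand), the gene with the largest rise, is given for comparison and has no capitals because nothing matched.
LINC02057: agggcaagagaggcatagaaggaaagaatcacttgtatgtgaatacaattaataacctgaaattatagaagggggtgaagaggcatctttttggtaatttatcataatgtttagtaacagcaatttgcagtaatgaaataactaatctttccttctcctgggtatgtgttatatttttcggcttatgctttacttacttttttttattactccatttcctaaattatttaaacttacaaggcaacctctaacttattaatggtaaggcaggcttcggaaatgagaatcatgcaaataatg

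Knockdown of RELB called far fewer genes. Of the 165, 1 rose (0.606% of the class, beside 1.21% of all tested genes called higher) and none fell (beside 0.81% called lower), and over both directions 2.02% of all genes were called. LINC00668, on chromosome 18 (6919496 to 6929966, minus strand), stood at 14.2, 12.01 and 10.2 CPM in siNS, 19.7, 19.5 and 19.4 CPM in siRELB and 15.7, 13.98 and 15.2 CPM in siNFKB2. The siRELB libraries were nearly equal and above all others, and the fitted value was log2 0.69 (SE 0.145, adjusted p = 0.0412). The call was lost in 7 of 9 fits with a library left out, at adjusted p = 0.225 without siNS replicate 3, 0.182 without siRELB replicate 2 or 3, 0.142 without siNS replicate 2, 0.108 without siRELB replicate 1, 0.0823 without siNFKB2 replicate 2 and 0.0768 without siNFKB2 replicate 3 (range over all alternatives 0.000978 to 0.225). On the opposite strand SCML2P1 covers 12.2% of its exonic bases.

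At an unadjusted p below 0.05, 27 of the 165 genes differed in siRELB, 14 of them with a positive and 13 with a negative value. This was 16.4% of the class beside 16.8% of all tested genes. DESeq2 called 5 genes, 2 higher and 3 lower. The number of called genes was 12 with the replicate number as a block and 23 without the 3 libraries numbered 1. It was 9 with mitochondrial rRNA as a covariate and 0 with only the 6 libraries compared. The share of all genes called in these fits is not given, so a change in count cannot be read as particular to the LINC genes. The siRELB and siNS libraries did not overlap for 41 genes (24.8%), beside 22.5% of all tested genes. The most negative fold changes, none of them called, were those of LINC00470 (log2 -1.001, adjusted p = 0.085), LINC01204 (-0.95, 0.1), LINC01537 (-0.94, 0.387), LINC00869 (-0.84, 0.287) and LINC01089 (-0.84, 0.158). The most positive, also not called, were LINC01003 (0.95, 0.265), LINC00911 (0.90, 0.339), LINC02057 (0.89, 0.109), LINC02806 (0.76, 0.568) and LINC00508 (0.75, 0.414). Under alternatives 5 of these 10 genes passed the threshold. The adjusted p ranged from 0.00383 to 0.303 for LINC00470, 0.0252 to 0.351 for LINC01204, 0.0288 to 0.434 for LINC01089, 0.0444 to 0.351 for LINC02057 and 0.0223 to 0.775 for LINC00508. With mitochondrial rRNA as a covariate it was 0.008 for LINC00470, 0.0469 for LINC01204, 0.0417 for LINC01089 and 0.0464 for LINC02057. LINC00470 stood at 7.204, 11.4 and 9.99 CPM in siNS and 4.61, 5.42 and 4.21 CPM in siRELB, without overlap. A miss of the threshold does not show that these RNAs were equal in siRELB and siNS.

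The siNFKB2 and siRELB libraries were also set against each other, which asks where the knockdowns differ. Of the 165 genes, 35 were higher in siNFKB2 (21.2%, beside 12.2% of all genes) and 15 lower (9.09%, beside 14.3%). The 50 together were 30.3% of the class, beside 26.6% of all genes. The groups did not overlap for 84 genes (50.9%), beside 46% of all genes. Any difference among the 3 groups was called for 56 genes (33.9%), beside 30% of all genes. This comparison and that with siNS share the siNFKB2 libraries, so their calls are not independent.

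LINC01204 had the largest positive difference between the knockdowns, at log2 2.52 in siNFKB2 against siRELB (SE 0.249, adjusted p = 0.00023). LINC02434 (1.24), LINC00944 (1.85) and LINC02085 (1.13) were higher, and LINC01963 (-1.70) and LINC01638 (-1.50) lower, in siNFKB2, and their values by library are given above. LINC01910 on chromosome 18 (70380140 to 70384591, minus strand) stood at 0.698, 0.812 and 1.13 CPM in siNFKB2 and 3.54, 3.31 and 3.12 CPM in siRELB, beside 2.84, 2.69 and 1.92 CPM in siNS (log2 -1.92, SE 0.267, adjusted p = 0.000859). LINC00920 on chromosome 16 (66408524 to 66412135, plus strand) stood at 14.1, 10.9 and 13.04 CPM in siNFKB2 and 5.79, 6.07 and 6.401 CPM in siRELB, beside 7.84, 8.003 and 8.07 CPM in siNS (log2 1.06, SE 0.149, adjusted p = 0.000925). In both genes siNS lay between the knockdowns in all libraries.

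Among the 50 genes, 9 were called between the knockdowns but not between siNFKB2 and siNS. LINC02055 (log2 0.99), LINC02506 (0.73), LINC02725 (0.84), LINC01535 (1.25), LINC01537 (1.78), LINC01518 (0.53) and LINC00470 (0.86) were higher in siNFKB2, and LINC01842 (-1.04) and LINC01116 (-0.42) were lower. LINC02055 stood at 31.1, 46.0 and 40.9 CPM in siNFKB2, 19.6, 20.8 and 19.3 CPM in siRELB and 22.4, 31.0 and 32.7 CPM in siNS, so siNS overlapped siNFKB2 and lay above siRELB. The remaining called genes were LINC00511, LINC02310, LINC02327, LINC02381, LINC00997, LINC02104, LINC02057, LINC01852, LINC02454, LINC01138, LINC01260, LINC01322, LINC00665, LINC00648, LINC02582, LINC00513, LINC01579, LINC01583, LINC02476, LINC01503, LINC02827, LINC02535, LINC01444, LINC00565, LINC00702, LINC01806, LINC01029, LINC02009, LINC02657, LINC02474, LINC02616, LINC00839 and LINC01094, each in the direction it had against siNS. The count was 27 without siRELB replicate 2, 27 without siRELB replicate 3 and 31 without siNFKB2 replicate 2. Whichever library was left out, 23 of the 50 stayed called. Of the 9 genes above, LINC02055 and LINC02506 were among these. LINC01116 lost its call in 6 of 9 fits (adjusted p up to 0.133, without siRELB replicate 2), LINC00470 in 5 (up to 0.113, without siRELB replicate 3), LINC01518 in 4 (up to 0.122, without siRELB replicate 2), LINC01537 and LINC01842 in 3 (up to 0.0911 and 0.0858), LINC01535 in 2 (up to 0.0622) and LINC02725 in 1 (0.0595). Of the genes also called against siNS, LINC02474 lost its call between the knockdowns in 7 fits (up to 0.129). LINC01094 (up to 0.168), LINC02616 (0.165), LINC00839 (0.15) and LINC02657 (0.142) lost theirs in 6. With mitochondrial rRNA as a covariate 61 genes were called, including 45 of the 50. LINC00470 (adjusted p = 0.0529, range over all alternatives 0.00291 to 0.113), LINC00565 (0.0788, range 0.000623 to 0.115), LINC00839 (0.0544, range 0.000429 to 0.15), LINC02616 (0.0555, range 0.00284 to 0.165) and LINC02657 (0.0847, range 0.0127 to 0.142) were not.

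Position in the genome was compared next, since the choice of genes did not use it. GENCODE 29 held 152 of the 165 genes, on 23 chromosomes, and typed 124 of them as lincRNA. LINC02693 is annotated there as the protein-coding gene C17orf51, and RefSeq lists LINC00634 as the protein-coding gene SMIM45. The exonic length ran from 194 to 28876 bases with a median of 2523, and 12 genes had 1 exon after merging of transcripts. Median exonic length was 2334 bases for genes that rose, 1943.5 for genes that fell and 2820.5 for genes not called in siNFKB2. At least 10% of exonic bases were shared with another gene on the same strand in 9 genes and on the opposite strand in 18.

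A protein-coding gene lay within 100 kb of 109 of the 152 genes and overlapped 17 of them. For 22 of the LINC genes called in siNFKB2 that neighbour was itself tested. The neighbour was called the same way in 7 (31.8%), the other way in 3 and not called in 12. Of 61 uncalled LINC genes with a tested neighbour, 15 had a called one (24.6%), close to the 26.1% of all genes. In siNFKB2 against siRELB, 21 called LINC genes had a tested neighbour. It was called the same way in 5, the other way in 3 and not called in 13. Of 62 uncalled LINC genes there, 24 had a called neighbour (38.7%), beside 26.6% of all genes called. In that comparison neighbours of called LINC genes were thus not called more often than those of uncalled LINC genes. Some uncalled genes share a neighbour, and SAMD11 and C1orf174, both called lower there, entered these 24 more than once. No test was made over these pairs. Against siNS, the calls of LINC02009, LINC01583, LINC01260, LINC00452 and LINC02657 were lost with some single libraries left out, as given above.

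The 7 pairs that moved together in siNFKB2 against siNS included both rises and falls. LINC02057 and SMIM15, 38.8 kb away, rose together (log2 2.15 and 2.03), and SMIM15 stood at 44.7 ± 17.8 CPM in siNS, 182.1 ± 16.7 CPM in siNFKB2 and 126.5 ± 11.7 CPM in siRELB (SD, n = 3). LINC02009 and CCRL2, which encodes an atypical chemokine receptor 3.5 kb away, rose by log2 1.27 and 1.59. LINC02310 and FRMD6, a regulator of Hippo signalling 92 kb away, rose by 1.48 and 1.38. LINC01963 and XRCC5, which encodes the Ku80 subunit that binds broken DNA ends, lie 10.7 kb apart and fell by 1.47 and 0.97 on the log2 scale. LINC01260 and ADA, the adenosine deaminase gene 4.2 kb away, fell by 0.76 and 0.80, though the call of LINC01260 was lost in 8 of the 9 fits with a library left out (adjusted p up to 0.157, without siNS replicate 2). LINC01583 with EFL1 (0.70 and 0.45, 32.5 kb) and LINC01094 with ANXA3 (1.44 and 0.39, 35.5 kb) rose together.

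In 3 pairs the neighbours moved apart. GAS6, the gene of a ligand of the TAM receptor kinases 24.2 kb from LINC00452, fell from 55.1 ± 21.8 to 16.6 ± 2.48 CPM (log2 -1.73, adjusted p = 0.00245) while LINC00452 rose by log2 0.46. In siRELB against siNS the values were 0.57 for LINC00452 and -0.71 for GAS6, neither called. Between the knockdowns LINC00452 was at -0.11, not called, so its higher level was not particular to siNFKB2. DAB2, an endocytic adaptor gene 58.1 kb from LINC02104, fell by 0.68 on the log2 scale where LINC02104 rose by 0.86. ASB13, 42.7 kb from LINC02657, fell by 0.61 on the log2 scale where LINC02657 rose by 0.90. The neighbour was not called for LINC02085 (NFKBIZ, a gene of the NF-kB response 79.8 kb away, log2 0.64, adjusted p = 0.281), LINC01806 (TANK), LINC00958 (TEAD1), LINC00520 (KTN1), LINC00839 (ZNF33B), LINC02381 (SMUG1), LINC00648 (MDGA2), LINC00665 (ZFP14), LINC01910 (SOCS6), LINC00511 (SLC39A11), LINC01311 (SLC25A1) and LINC01293 (POLE4). For 8 further genes the neighbour did not pass the filter on low counts. They included LINC02434 (TRIML1), LINC02535 (NT5E), LINC00920 (CDH5), LINC00960 (ZNF717), LINC01138 (PPIAL4G), LINC01322 (SLITRK3) and LINC00565 (C13orf46). LINC00452 and LINC00565, which both rose, lie 3002 bases apart on opposite strands.

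**Figure D5:**
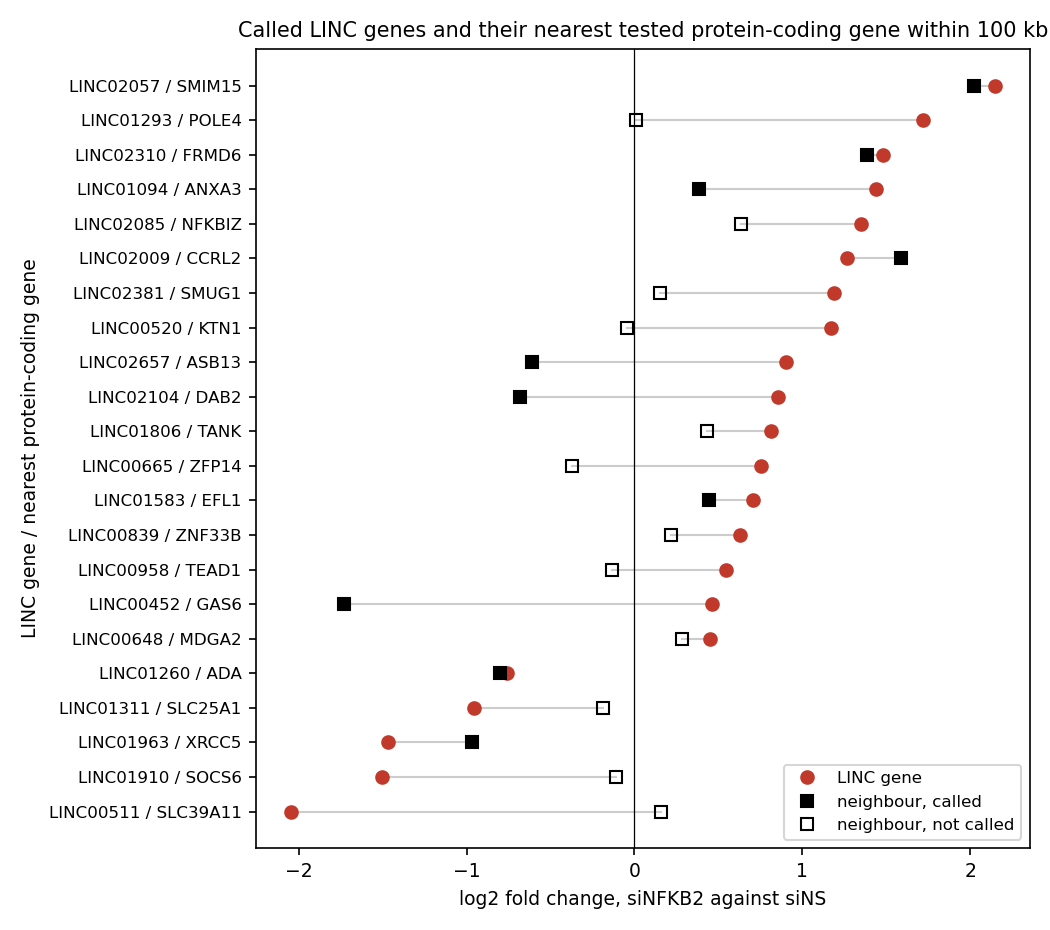
Fitted log2 fold change in siNFKB2 against siNS (x axis) of 22 called LINC genes and their nearest protein-coding gene within 100 kb. LINC genes are red circles and neighbours squares, filled where called, with 1 pair per line (y axis). Called LINC genes whose nearest gene was not tested are left out. Of the 10 filled squares 7 lie on the side of their LINC gene and 3, for LINC00452, LINC02104 and LINC02657, on the other side.

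Long noncoding RNA genes with names of another kind were read from the same fit. Of 75 such genes on a list, 49 were tested. In siNFKB2 against siNS 9 were higher (18.4%, beside 12.6% of all tested genes) and 4 lower (8.16%, beside 13.5%), with a median log2 fold change of 0.14, the same to 2 decimals as for the LINC genes. In siRELB against siNS 1 was called, and it was lower (2.04%, beside 0.81% of all tested genes), with a median of -0.25 beside 0.08 for the LINC genes. Between the knockdowns 11 were higher (22.4%, beside 12.2%) and 2 lower (4.08%, beside 14.3%) in siNFKB2. LUCAT1, a stress-responsive RNA, rose from 9.70 ± 1.36 to 27.6 ± 3.57 CPM (log2 1.51), and PURPL, an RNA induced by p53, from 11.1 ± 2.48 to 30.7 ± 2.93 CPM (log2 1.47) in siNFKB2. VIM-AS1 (log2 1.18), LINC-PINT (1.57), OIP5-AS1 (0.79) and MIR100HG (1.16) rose as well, as did EGOT from 0.124 ± 0.132 to 0.821 ± 0.234 CPM, and TP53TG1 fell by 0.71 on the log2 scale. The other called genes, named after their values were seen, were MIR31HG (log2 1.66) and FTX (1.52), which rose, and NKILA (-0.51), an RNA that binds NF-kB, TMPO-AS1 (-1.13) and ST7-AS1 (-1.76), which fell. ZFAS1, a host gene of small nucleolar RNAs, was the gene that fell in siRELB (from 130.2 ± 25.4 to 74.9 ± 2.697 CPM, log2 -0.80, adjusted p = 0.0218).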

How the data were processed

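The authors deposited, for each of the 9 libraries, whole-number counts of alignments per gene symbol with no normalization. The submitters' processing notes name the genome build GRCh38.p13 and the tools STAR 2.7.1a, Subread 1.6.4 and Trimmomatic 0.38. What each tool did, its settings, the gene annotation and the strand setting were not given in the sources used here. No LINC gene described here has a further entry with a suffix. Groups and replicate numbers come from the labels, which do not call the replicates separate cultures. The p-values therefore reflect how libraries varied, and part of that may be technical.

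Genes were filtered with filterByExpr of edgeR 4.0.16 (R 4.3.3), which left 14815, and scaled by TMM, a trimmed-mean scaling of library sizes. All 9 libraries entered one model, and edgeR's quasi-likelihood F test was applied with Benjamini-Hochberg adjustment over the 14815 genes. A gene was called, and is said to have risen or fallen, at an adjusted p below 0.05. The SE is the absolute log2 fold change over the square root of F. The rule and the summed level use CPM over the plain library total, and other levels use TMM-scaled CPM. The procedure was tested on simulated counts. Alternatives were DESeq2 1.42.0 and other scalings, filters, covariates and subsets of libraries.

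The genes and lists were chosen with earlier results of these data known. Every LINC gene called in a comparison is named, with values by library for those with the smallest adjusted p and no overlap, together with the 10 most abundant, the 5 extremes each way against siNS, the genes beside the limit of 1 CPM and the nearest coding neighbour, except 1 that is not reported here. Values by library for other genes, and the levels per kilobase of LINC01173 and LINC02331, were added after their values were seen. Positions came from GENCODE 29 (152 genes matched, 143 of them by symbol), which may differ from the annotation behind the counts, and promoters from RefSeq.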

Additional observations from a re-analysis of the deposited data

How the results depend on the processing

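In siNFKB2 against siNS 51 LINC genes were called, and 29 of them were called in all 18 alternatives. Single libraries left out gave 33 (without siNS replicate 3) to 53 calls. Between the knockdowns 23 of 50 calls held throughout, and leaving out single libraries gave 27 to 57 calls. For any difference among the groups, 56 genes were called, and the range was 33 (without siNFKB2 replicate 2) to 68, with 36 without siRELB replicate 2. No fold change of a called gene reversed. The siRELB count of 1 was the least stable. It was 2 with no filter, 9 with mitochondrial rRNA as a covariate, 0 with only the 6 libraries compared, 5 with DESeq2, 23 without the 3 libraries numbered 1, and 0 to 10 with single libraries left out (10 without siNS replicate 1, 2 without siNFKB2 replicate 1). The cause was not tested.

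With the replicate number as a block the counts were 63 in siNFKB2 against siNS, 12 in siRELB against siNS, 76 between the knockdowns and 81 for any difference. For no count under an alternative, here or above, is the share of all genes called given. A change in such a count cannot be read as particular to the LINC genes. The block brought LINC00470 (adjusted p = 0.0123), LINC02057 (0.0444) and LINC00508 (0.0341) past the threshold in siRELB against siNS. Deviations of same-numbered libraries from their group means correlated at 0.585, 0.0545 and 0.0914 (siNFKB2 with siNS), 0.594, 0.376 and 0.0439 (siRELB with siNS) and 0.535, 0.171 and 0.45 (siNFKB2 with siRELB). Libraries numbered 1 correlated with each other in every comparison (0.585, 0.594 and 0.535) and negatively with those numbered 2 and 3. Deviations within a group cancel out, so the negative values follow in part from the positive ones. Those numbered 2 and 3 did not all correlate best with their own number, as siNFKB2 replicate 3 with siNS replicate 2 (0.569). The numbers were therefore not taken as pairs, and a difference shared by the libraries numbered 1 remains in the main fit. Most of these genes lie at 1 to 10 CPM, where few reads limit the precision of a fold change.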
